A study of Homo sapiens with 6 samples.

Results

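Class IIa histone deacetylases and MEF2 transcription factors form a repressor-activator pair that protein kinase D acts on, and they are described here across RNA-seq libraries of the human myeloma line MM.1S with and without knockdown of a protein kinase D gene. The rule takes the members by symbol and applies no cut on a measured value, but the symbols were proposed with earlier results of these data known. They are the class IIa deacetylase genes HDAC4, HDAC5, HDAC7 and HDAC9 and the factor genes MEF2A, MEF2B, MEF2C and MEF2D. All 8 symbols were among the 21850 genes of the count table, and none was absent. The study silenced PRKCN, listed by its current symbol PRKD3, to profile the transcriptome after its depletion. The shPRKCN group held 3 libraries from cells infected with a PRKCN short hairpin RNA, and the shNT group held 3 libraries from cells with a wild-type genotype label that were infected with a scramble hairpin. Both groups carried a lentiviral hairpin and were collected on day 3. The labels give 1 name for the PRKCN hairpin and do not say whether the libraries of a group came from separate cultures, so p-values measure only the spread between these libraries, which may be technical. A single cell line and, as far as the labels show, a single PRKCN hairpin stand behind every value.

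The class IIa deacetylases have little catalytic activity of their own. They bind MEF2 factors on DNA and bring in the NCoR/SMRT complex with HDAC3, which keeps MEF2 target genes repressed. Kinases of the protein kinase D, CaMK, SIK and MARK families phosphorylate them, 14-3-3 proteins then bind the phosphorylated sites, and the complex leaves the nucleus through exportin 1, which frees MEF2 to recruit acetyltransferases. MEF2C and HDAC7 are known for their part in B-lineage development, and HDAC9 is itself a textbook MEF2 target gene. RNA counts measure transcript levels and give no information on phosphorylation, location or protein amount.

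Total counts ran from 35625564 to 37730003 per library. The target PRKD3 fell from 1262 ± 41.7 CPM (library counts scaled by the TMM method, SD, n = 3) to 517 ± 23.4 CPM (SD, n = 3), a log2 fold change of −1.29 (adjusted p = 8.2e-43, the quasi-likelihood test of edgeR, with p-values adjusted by Benjamini-Hochberg over the 13971 genes tested). Of 7 plasma cell markers, all were listed. Their summed level was 8151 to 8294 CPM in shNT and 7531 to 7654 CPM in shPRKCN libraries. JCHAIN made up most of it, with means of 5358 CPM in shNT and 5412 CPM in shPRKCN. XBP1 (log2 fold change −1.28) and TNFRSF17 (−1.13) were lower past both limits used below. By adjusted p alone PRDM1 (−0.54) and MZB1 (−0.23) were also lower and SDC1 (0.18) was higher, while CD38 and JCHAIN did not pass. The B-cell markers PAX5 and MS4A1 and the myeloid markers LYZ, CD14 and CSF1R had at most 9 counts in any library. Among 3 T-cell markers, CD3D had 0 or 1 count and CD2 at most 29, while CD3E rose from 379 to 419 counts to 1021 to 1150, so that the summed T-cell list went from between 10.7 and 11.98 CPM to between 27.5 and 31.3 CPM. The part of these marker differences in the results below was not tested.

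HDAC9, MEF2A and MEF2C each have an annotated start site whose promoter window holds the MEF2 consensus, and so do JUN and KLF2 among the MEF2 target genes described below. The consensus searched was a pyrimidine, then TA, then 4 bases that are each A or T, then TA, then a purine. It reads the same on both strands, so 1 search covers both, and it was chosen after expression values had been seen. A window spans 250 bases before to 50 after a RefSeq start site on GRCh38.p14. The sequences below show each match in capitals with 10 bases on each side, 5′ to 3′ on the strand of the gene.
HDAC9: ccaagaagtgCTATTTTTAGcaaattctcc
MEF2A: ggcttgtctcCTAAAAATAGccccggtgtg
MEF2C: atattccataTTATTTTTAAggtgttctca
JUN: acatcatgggCTATTTTTAGgggttgactg
KLF2: tataccgcggCTAAATTTAGgctgcgcccg

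The HDAC9 stretch lies at chr7:18086807-18086836 on the plus strand, with the match at position −8 from its start site. That of MEF2A is at chr15:99565951-99565980 on the plus strand with the match at −23, and that of MEF2C is at chr5:88824500-88824529 on the minus strand with the match at −175. Both the MEF2A and the MEF2C stretch lie inside the gene spans given below, so they belong to internal start sites. Gene-level counts do not show which start sites these cells use. The JUN match begins at −55 (chr1:58784083-58784112, minus strand) and the KLF2 match at −120 (chr19:16324696-16324725, plus strand). Their matched letters show that HDAC9 and JUN hold the same 10 bases, and that MEF2A holds these bases read on the other strand. Across 35116 RefSeq windows 2.99% held a match, and of 11035 tested genes with a window 2.175% had one in at least 1 window. Of the 7 members with a window, 3 had a match, in 1 of 5 windows for HDAC9, 1 of 3 for MEF2A and 1 of 7 for MEF2C, so genes with several start sites had more chances. The windows of HDAC4, HDAC7, MEF2B and MEF2D held none, which says only that these letters are not in them. Of 12 MEF2 target genes with a window, HDAC9 included, 3 had a match, and NR4A1, KLF4, PPARGC1A, IRF8, BCL6, KLF6, CKM, MMP10 and MYOM1 had none. A match is a description of the sequence and not evidence of binding.

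Of the 8 members, 7 had enough counts to be tested, each with at least 932 counts in every library. HDAC9 was lower in shPRKCN cells at 51.1% of its shNT level, HDAC4 was modestly higher, MEF2A, MEF2C and MEF2D were modestly lower, and HDAC5 and HDAC7 did not pass the test. The study's own limits were used for a call, 0.05 for the adjusted p and 0.58 for the size of the log2 fold change. At these limits 859 genes were called higher and 1475 lower here, and 812 and 1450 with DESeq2. The study reported more genes in each direction with DESeq2, so the shares below are not those of its gene list. The cause of this gap was not tested. By these limits 0 members were called higher (6.15% of all tested genes were) and 1 was called lower, HDAC9 (10.6% of all tested genes were). By adjusted p alone, 1 member was higher (26.5% of all tested genes) and 4 were lower (27.8% of all tested genes). The groups did not overlap for 6 of the 7 tested members, against 58.8% of all tested genes, so separated groups were common in this comparison. The median log2 fold change of the 7 was −0.18, beside 0.0012 over all tested genes. In bulk libraries fewer cells of a kind and less RNA per cell cannot be told apart.

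**Figure D1:**
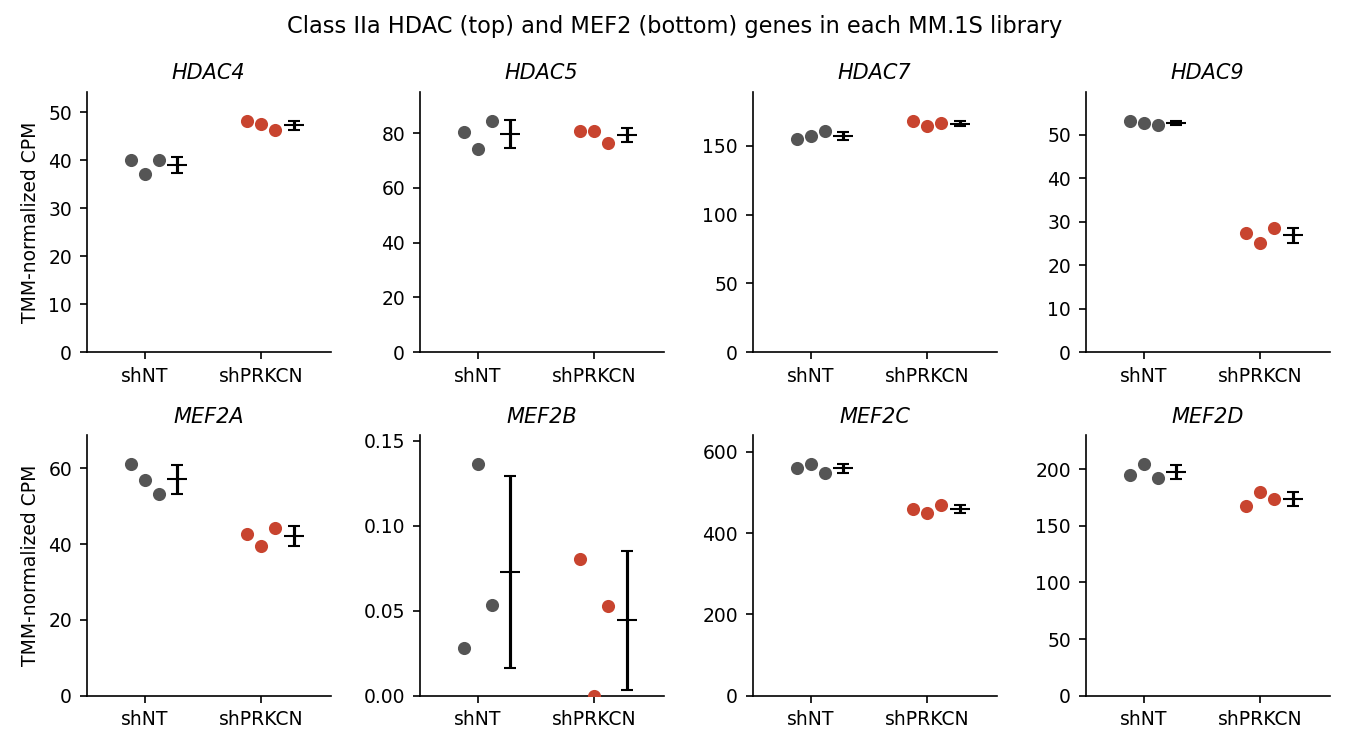
TMM-normalized CPM of each member in the 3 shNT (grey) and 3 shPRKCN (red) libraries, with the mean and SD beside the points and each vertical axis starting at 0. The HDAC9 points sit between 52.2 and 53.2 CPM in shNT and between 25.1 and 28.5 CPM in shPRKCN cells, the MEF2A, MEF2C and MEF2D points shift down by less, and the MEF2B axis spans a fraction of 1 CPM.

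HDAC9 encodes a class IIa deacetylase with a well known short splice form that lacks the deacetylase domain. It lies at chr7:18086825-19002416 on the plus strand. Its level was 53.2, 52.7 and 52.2 CPM in the shNT libraries and 27.3, 25.1 and 28.5 CPM in the shPRKCN libraries. The shNT libraries were almost equal, the shPRKCN libraries were all low, and a wide gap separated the groups. The means were 52.7 ± 0.497 CPM (SD, n = 3) and 26.9 ± 1.73 CPM (SD, n = 3), with a log2 fold change of −0.97 (SE 0.056, 95% interval −1.08 to −0.86, edgeR adjusted p = 1.4e-24). Of all tested genes, 8.03% had a larger change in size than HDAC9. The gene-level count sums its splice forms, and 7 annotated genes overlap its span, 0 of which were listed in the table.

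HDAC4, at chr2:239048168-239401649 on the minus strand, encodes the class IIa deacetylase best studied in cartilage and muscle. Its level was 40.1, 37.1 and 39.98 CPM in shNT and 48.2, 47.5 and 46.3 CPM in shPRKCN libraries. Every shPRKCN library was above every shNT library, opposite in direction to HDAC9. The log2 fold change was 0.28 (SE 0.053, 95% interval 0.17 to 0.38, edgeR adjusted p = 7.2e-06), or 121% of the shNT level, inside the fold limit. Changes of larger size were found in 45.4% of the tested genes. HDAC4-AS1, which overlaps the start of the gene, had 22 to 32 counts in any library, against 1364 to 1800 for HDAC4.

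HDAC7 encodes the class IIa deacetylase of lymphoid and endothelial cells and lies at chr12:47782722-47821344 on the minus strand. Its level was 155, 157 and 161 CPM in shNT and 168, 164 and 166 CPM in shPRKCN libraries. The groups did not overlap, but the highest shNT and the lowest shPRKCN library were close together. The log2 fold change of 0.08 (SE 0.037, edgeR adjusted p = 0.066) did not pass the test, and its unadjusted 95% interval ran from 0.0048 to 0.15. The adjusted p fell under 0.05 in 8 of 16 alternatives, among them DESeq2 with a value of 0.040, the leaving out of shNT replicate 3 with 0.044 and of shPRKCN replicate 2 with 0.043. The tail of SLC48A1 overlaps the end of HDAC7 on the other strand, only from base 47782722 to base 47782751. SLC48A1 had 1250 to 2033 counts over the whole gene, and the strandedness of the counting is not stated in the sources used here.

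HDAC5, at chr17:44076753-44123641 on the minus strand, encodes the deacetylase best known as a brake on cardiac MEF2 activity. Its level was 80.4, 74.2 and 84.4 CPM in shNT and 80.7, 80.7 and 76.2 CPM in shPRKCN libraries. The highest and the lowest library were both shNT, and the groups overlapped. Its log2 fold change was −0.0089 (SE 0.046, edgeR adjusted p = 0.885) with a 95% interval of −0.10 to 0.08, and the sign turned in 6 of 16 alternatives. The value without shNT replicate 3 was 0.035 and without shPRKCN replicate 3 it was 0.025.

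Of the activators, MEF2A is the broadly expressed factor and lies at chr15:99565417-99716488 on the plus strand. Its level was 61.0, 56.9 and 53.3 CPM in shNT and 42.7, 39.3 and 44.3 CPM in shPRKCN libraries. The shNT libraries spread more, relative to their level, than those of MEF2C and MEF2D, yet all lay above the shPRKCN libraries. MEF2A fell to 73.8% of its shNT level, with a log2 fold change of −0.44 (SE 0.053, 95% interval −0.54 to −0.33, edgeR adjusted p = 9.0e-11). The interval lies inside the fold limit, and 29.2% of tested genes had a change of larger size. LYSMD4 overlaps the end of MEF2A on the other strand and had 274 to 362 counts, against 1463 to 2154 for MEF2A.

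MEF2C, the member of the family with known roles in B cells, heart and brain, lies at chr5:88717117-88904105 on the minus strand. It was measured at 560.2, 569 and 548 CPM in shNT and at 458, 449.8 and 469 CPM in shPRKCN libraries. No shPRKCN library came near the shNT range, and the spread within each group was small. The means were 559 ± 10.5 CPM and 459 ± 9.88 CPM (SD, n = 3 each), with a log2 fold change of −0.28 (SE 0.033, 95% interval −0.35 to −0.22, edgeR adjusted p = 2.1e-11). This left 82.1% of the shNT level, and 44.6% of tested genes changed by more. The antisense genes MEF2C-AS1, with 109 to 129 counts, and MEF2C-AS2, with 0 to 16, were small beside the 16724 to 20928 counts of MEF2C.

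MEF2D encodes the remaining widely expressed factor and lies at chr1:156463727-156500775 on the minus strand. Its level was 195, 204 and 192 CPM in shNT and 167, 179.6 and 174 CPM in shPRKCN libraries. All shPRKCN libraries were lower, with shPRKCN replicate 2 the nearest to the shNT group. The log2 fold change was −0.18 (SE 0.037, 95% interval −0.26 to −0.11, edgeR adjusted p = 2.1e-05), which left 88.0% of the shNT level. More than that change was seen in 59.6% of tested genes.

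MEF2B, the factor of germinal-centre B cells, lies at chr19:19145567-19170263 on the minus strand. It had 1, 5 and 2 counts in the shNT libraries and 3, 0 and 2 counts in the shPRKCN libraries. These values lie around a floor of 3 counts per library, the groups overlapped, and no fold is given because no difference was detectable at this depth. The readthrough gene BORCS8-MEF2B, which spans MEF2B, was not listed, while its upstream partner BORCS8 was listed and had a log2 fold change of 0.12 (SE 0.13, edgeR adjusted p = 0.472).

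**Figure D2:**
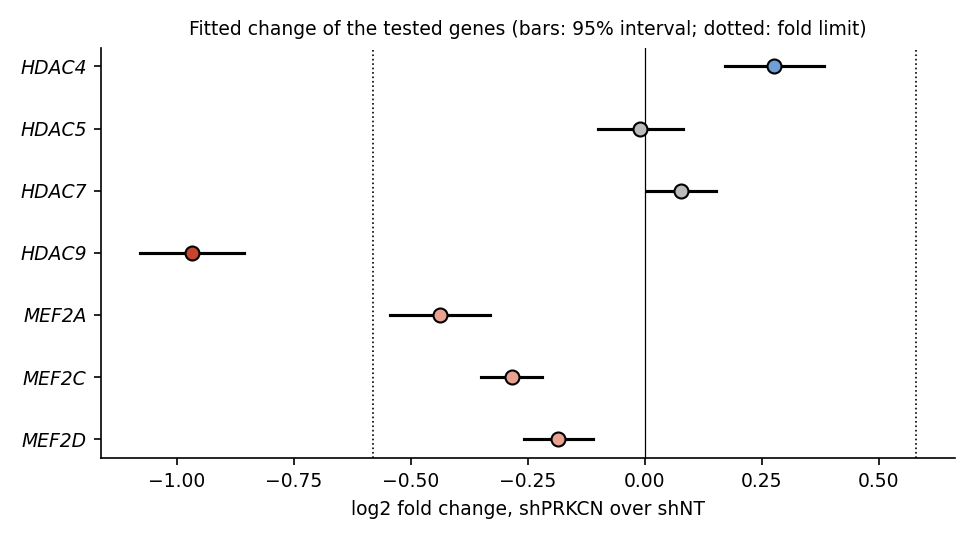
Fitted log2 fold change of shPRKCN over shNT for the 7 tested members, with bars for the 95% interval and dotted lines at the fold limit of 0.58 in either direction. HDAC9 at −0.97 is the member beyond the limit, the 3 MEF2 genes lie between −0.44 and −0.18, and HDAC4 at 0.28 lies on the other side of 0.

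For a single value, 3 libraries against 3 cannot give a 2-sided exact permutation p under 0.1. HDAC4, HDAC7, HDAC9, MEF2A, MEF2C and MEF2D each gave that smallest value, and HDAC5 gave an exact permutation p of 1. Over 16 alternatives, HDAC9 kept its direction and its side of the adjusted p of 0.05 with log2 fold changes of −1.002 to −0.70. The same held for HDAC4 (0.19 to 0.30), MEF2A (−0.48 to −0.33), MEF2C (−0.30 to −0.26) and MEF2D (−0.21 to −0.15).

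Levels were compared between genes on the authors' FPKM, which divide a gene's counts by its length and the library total. MEF2C was the most abundant member in shNT cells at 60.3 ± 1.20 FPKM (SD, n = 3), followed by HDAC7 at 26.4 ± 0.5002, MEF2D at 20.2 ± 0.666 and HDAC5 at 13.6 ± 0.862 FPKM. MEF2A at 4.27 ± 0.286 FPKM and HDAC9 at 3.86 ± 0.035 FPKM were neighbours, with HDAC4 at 1.53 ± 0.064 FPKM and MEF2B at 0.051 ± 0.039 FPKM below them. In shNT cells no library of a member overlapped the range of its neighbour in this order, although MEF2A and HDAC9 came close, with a lowest MEF2A library of 3.98 FPKM and a highest HDAC9 library of 3.89 FPKM. The order by mean was the same in shPRKCN cells. There HDAC9 (1.84 to 2.13 FPKM) overlapped HDAC4 (1.85 to 1.93 FPKM), so these neighbours did not differ beyond their spread. The lengths behind the FPKM run from 1425 bases for MEF2B to 25299 bases for HDAC4. The latter is long for a spliced messenger RNA, so an FPKM of HDAC4 understates a gene with shorter transcripts. The lengths of HDAC9 (13559 bases) and MEF2A (13277) are also well above those of HDAC7 (5929) and HDAC5 (5813), with MEF2C (9202) and MEF2D (9670) between. Levels, shares and ratios between genes depend on these lengths.

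Within the class IIa family, the summed FPKM was 45.4 ± 1.20 in shNT and 45.8 ± 0.836 in shPRKCN cells (SD, n = 3 each), and the groups overlapped. HDAC7 supplied 58.1 ± 1.06% of that sum in shNT and 61.6 ± 0.571% in shPRKCN cells, and HDAC5 supplied 29.99 ± 1.18% and 29.9 ± 0.806%. HDAC9 supplied 8.51 ± 0.286% and then 4.37 ± 0.286%. HDAC4 went from 3.38 ± 0.099% to 4.11 ± 0.046%. The ratio of HDAC9 to HDAC4 FPKM was 2.48, 2.65 and 2.44 in shNT and 1.06, 0.985 and 1.147 in shPRKCN libraries, so the ratio was lower in every shPRKCN library than in any shNT library (2-sided exact permutation p = 0.1, the smallest possible). The gene lengths set the size of this ratio, and with it which gene is the higher, but cancel from its change. The ratio of HDAC7 to HDAC5 was 1.94 ± 0.114 and 2.06 ± 0.075 (SD, n = 3 each, exact permutation p = 0.3).

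The summed MEF2 level was 84.9, 86.9 and 82.9 FPKM in shNT and 71.2, 70.0 and 73.3 FPKM in shPRKCN libraries. Every shPRKCN library had less MEF2 transcript than every shNT library. The shares within the family moved little, with MEF2C at 71.1 ± 0.255% and 70.2 ± 0.727%, MEF2D at 23.8 ± 0.317% and 25.3 ± 0.980%, and MEF2A at 5.02 ± 0.298% and 4.46 ± 0.221% of the sum (SD, n = 3 each). Set against the repressors, the FPKM of MEF2C was 2.29 ± 0.078 times that of HDAC7 in shNT cells and 1.78 ± 0.033 times in shPRKCN cells. Against HDAC9 it was 15.6 ± 0.247 times in shNT and 25.2 ± 1.13 times in shPRKCN cells. Both ratios were separated between the groups (exact permutation p = 0.1, the smallest possible) and they moved in opposite directions.

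**Figure D3:**
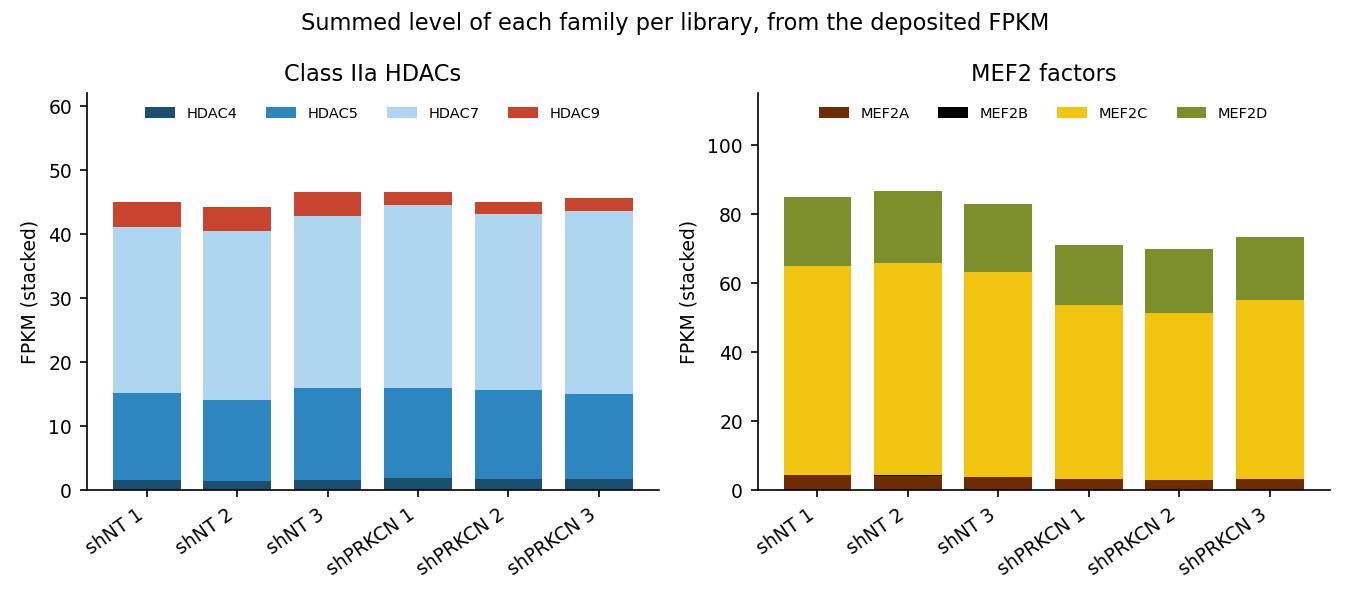
Stacked FPKM of the class IIa deacetylase genes (left) and MEF2 genes (right) in each of the 6 libraries, on axes that start at 0. The class IIa sum stays near 45 FPKM in both groups while its HDAC9 layer thins, and the MEF2 sum is 82.9 to 86.9 FPKM in shNT and 70.0 to 73.3 FPKM in shPRKCN libraries.

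Genes with profiles most like HDAC9 over the 6 libraries were sought among 4522 genes whose mean CPM was within 2-fold of it, by the Euclidean distance between log2 CPM values centred on each gene's own mean. The nearest were CKAP2L, a mitotic spindle protein (distance 0.062), HELLS, a chromatin remodelling helicase (0.069), and EPB41L2, a membrane skeleton protein (0.078). Their log2 fold changes were −0.97, −0.96 and −0.96. For MEF2A, among 4448 candidates, the nearest were SNAPC3, a subunit of the complex that transcribes small nuclear RNA genes (0.052), PURB, a nucleic acid-binding protein (0.063), and STRN, a scaffold of protein phosphatase 2A (0.064). Since all points come from 6 libraries in 2 groups, these distances mostly order genes by the size of the difference between the groups.

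Around the members, 64 other genes of the pathway were taken from lists of their kinases, carriers, phosphatases, corepressors, coactivators, targets and related deacetylases. The lists were proposed with earlier results of these data known, so their counts are not blind to the data. Of these 59 were tested, 0 were called higher (6.15% of all tested genes were) and 12 were called lower (10.6% of all tested genes were), and the log2 fold changes had a median of −0.05. By adjusted p alone 15 were higher and 28 were lower, beside 26.5% and 27.8% of all tested genes, and 16 did not pass. Without the MEF2 target genes, 7 of 51 were called lower and the median was −0.01. PRKD3, the gene that the hairpin silences, is counted among the 12 and among the 7, so its call follows from the design.

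The kinases that phosphorylate class IIa deacetylases numbered 13, all tested, and 3 were called lower (10.6% of all tested genes were). Past both limits were the silenced PRKD3 itself (−1.29) and the calmodulin-dependent kinases CAMK2D (−0.67, from 18.3 ± 1.84 to 11.5 ± 0.391 CPM) and CAMK4 (−0.66, from 3.63 ± 0.574 to 2.30 ± 0.321 CPM; SD, n = 3 each). On log2(FPKM + 1) in limma CAMK2D was at −0.43, inside the fold limit, and CAMK4 at −0.12. CAMK4 kept its direction in the 15 alternatives that gave a value, but lost the fold limit without shNT replicate 2 (−0.52) or shPRKCN replicate 3 (−0.54), and it lost the adjusted p of 0.05 with limma on log2(FPKM + 0.1), at 0.097. By adjusted p alone 7 kinases were lower, PRKD3 among them (27.8% of all tested genes were), and 3 were higher (26.5% were). The higher ones were SIK2 (0.13), SIK3 (0.27) and MARK2 (0.28), and the list median, PRKD3 included, was −0.21. The other protein kinase D genes were PRKD2, with a log2 fold change of −0.19 (edgeR adjusted p = 5.2e-05), and PRKD1, with −0.30 (adjusted p = 0.045), which passed 0.05 in 3 of 15 alternatives and, of the fits that left out a library, only without shPRKCN replicate 2.

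The 14-3-3 proteins and exportin carry phosphorylated deacetylases out of the nucleus. Of their 8 tested genes, 2 were called lower (10.6% of all tested genes were). YWHAH, the eta form of 14-3-3, went from 117 ± 2.50 to 73.9 ± 1.33 CPM (log2 fold change −0.67, edgeR adjusted p = 1.0e-22). SFN, the sigma form, fell from 74 to 95 counts to 34 to 54 counts (−0.998, adjusted p = 0.00068), so its value rests on few reads, and on log2(FPKM + 1) it was −0.54, inside the fold limit. The other genes lay between −0.12 and 0.13, with the exportin gene XPO1 at −0.10.

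None of the 9 phosphatase genes, which include calcineurin subunits, passed both limits. By adjusted p, 2 were higher and 3 lower, beside 26.5% and 27.8% of all tested genes. The list median was 0.03, with PPP3CA, a calcineurin catalytic subunit, at 0.44 the highest. The 7 corepressor genes also gave 0 calls. Of all tested genes, 6.15% were called higher and 10.6% lower. By adjusted p, 2 corepressor genes were higher and 2 lower, beside 26.5% and 27.8% of all tested genes. HDAC3, the enzyme that class IIa deacetylases bring to DNA, was at −0.01 and did not pass, and TBL1X, a subunit of the NCoR/SMRT complex, was the lowest at −0.52 (SE 0.043).

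MEF2 coregulators split in direction. All 8 passed an adjusted p of 0.05, with 5 higher and 3 lower, beside 26.5% of all tested genes higher and 27.8% lower. Past both limits, 1 was called lower (10.6% of all tested genes were) and 0 were called higher (6.15% were). KAT2B, the acetyltransferase PCAF that MEF2 can recruit, was 87.8, 87.3 and 86.0 CPM in shNT and 32.3, 30.1 and 30.6 CPM in shPRKCN libraries. Its groups were far apart (log2 fold change −1.49, SE 0.049, edgeR adjusted p = 1.6e-37). The acetyltransferases EP300 (0.18) and CREBBP (0.15), the arginine methyltransferase CARM1 (0.32) and the calcineurin and MEF2 inhibitor CABIN1 (0.46) were higher inside the fold limit, while the MEF2-activating kinases MAPK7 (−0.40) and MAPK14 (−0.22) were lower.

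Known MEF2 target genes other than HDAC9 numbered 13, of which 8 were tested. Of the tested genes, 5 were called lower (10.6% of all tested genes were) and 0 were called higher (6.15% were). By adjusted p 0 were higher, beside 26.5% of all tested genes. The median log2 fold change of the 8 was −1.57. JUN, the AP-1 subunit, went from 356, 353 and 363 CPM in shNT to 66.9, 65.3 and 69.7 CPM in shPRKCN libraries. Each shPRKCN value was far under the shNT range (log2 fold change −2.41, SE 0.038, edgeR adjusted p = 9.9e-56). PPARGC1A, a coactivator of mitochondrial genes, fell by 1.73 on the log2 scale, the Kruppel-like factor genes KLF2 and KLF4 by 1.40 and 1.93, while the orphan nuclear receptor gene NR4A1 had a log2 fold change of −4.09, from 68 to 79 counts to 2 to 6 counts. The study itself names NR4A1 and KLF4 from these libraries. It also reports KLF2, as a target of IRF4, to be lower after PRKCN knockdown in myeloma lines. The list is therefore not independent evidence of its direction. On log2(FPKM + 1), where low genes are compressed, PPARGC1A was at −0.83, KLF4 at −0.92 and NR4A1 at −0.30, the last inside the fold limit. IRF8 (−0.22, adjusted p = 0.044) was lower by adjusted p, and KLF6 (−0.05) and BCL6 (0.34) did not pass. The list's genes of muscle and fat had few or no counts. SLC2A4 had 0 or 1 count, CKM, DES and the metalloprotease gene MMP10 were not listed, and MYOM1 went from 1 or 2 counts per library to between 7 and 23, too few to be tested.

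**Figure D4:**
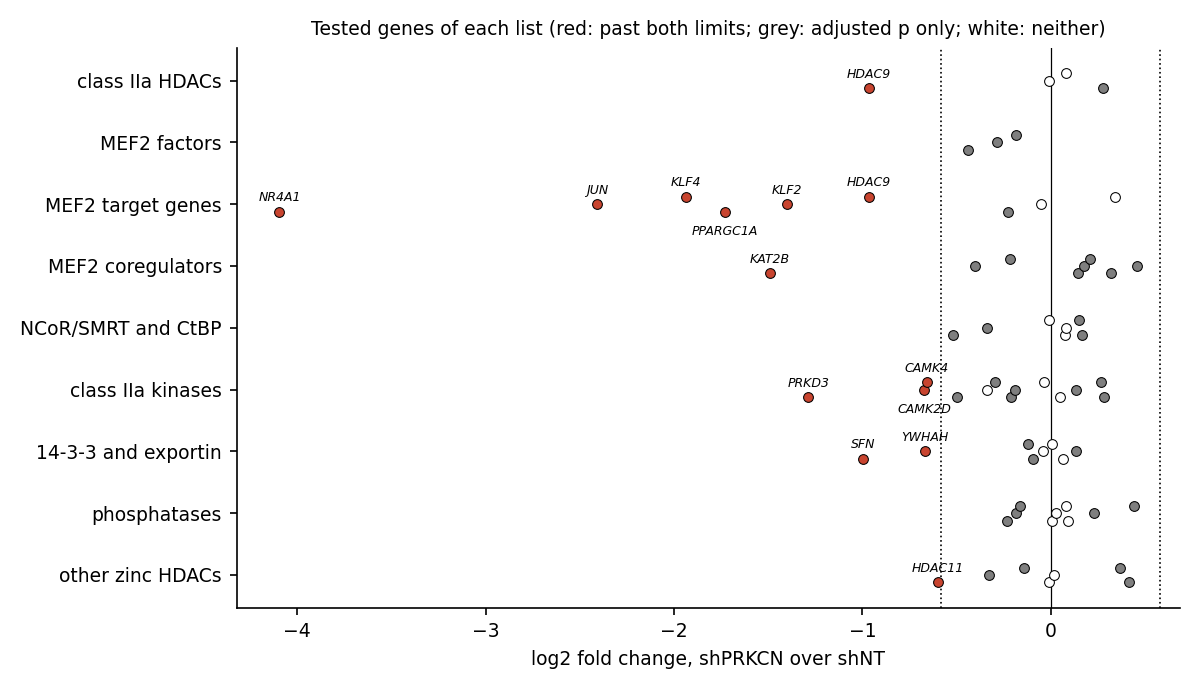
Log2 fold change of shPRKCN over shNT for every tested gene of each list, with dotted lines at 0.58 in either direction and points of a row offset to keep them apart. The genes past both limits, in red and named, all lie on the lower side, from HDAC11 at −0.60 to NR4A1 at −4.09, and HDAC9 appears in both lists that hold it.

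The other zinc-dependent deacetylases gave a comparison for the class IIa genes. Of 7 tested, 1 was called lower (10.6% of all tested genes were). That gene was HDAC11, of class IV, with 96 to 117 counts per shNT library and 63 to 89 per shPRKCN library (log2 fold change −0.60, edgeR adjusted p = 0.0098). Without shPRKCN replicate 1 its value was −0.499 with an adjusted p of 0.054 in edgeR, and without shPRKCN replicate 2, shNT replicate 2 or shNT replicate 3 it was −0.57, −0.56 and −0.57, all inside the fold limit, as was its −0.27 on log2(FPKM + 1). HDAC1 (0.37) and HDAC10 (0.42) were higher by adjusted p, HDAC6 (−0.33) and HDAC8 (−0.14) were lower, and HDAC2 (0.02) and HDAC3 (−0.01) did not pass. Across these genes and the class IIa genes together, the log2 fold change of HDAC9 was the lowest and that of HDAC10 the highest.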

How the data were processed

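RNA of MM.1S cells was sequenced in 3 shNT and 3 shPRKCN libraries. The labels gave each library its group and number. The authors deposited raw read counts per gene without normalization, and FPKM values that the authors computed from those counts, each library's total and 1 length per gene. FastQC, HISAT2, StringTie and the build GRCh38.p14 are named in the submitters' processing notes. The counting program, annotation and strandedness are not given in the sources used here.

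The quasi-likelihood test of edgeR 4.0.16 in R 4.3.3 was run, with TMM scaling, on the 13971 genes that filterByExpr kept, with Benjamini-Hochberg adjustment over all of them. Calls needed both limits, 0.05 on the adjusted p and 0.58 on the size of the log2 fold change. The SE was derived from the F statistic (the absolute log2 fold change over its root). A floor of 3 counts per library was chosen for a detectable level and was not computed from the total counts, which were at least 35625564. Intervals cover the spread between libraries. Replicates differed beyond sampling noise (chi-square per degree of freedom 3.49 to 5.01 within groups, 68.9 to 75.8 between groups), so none was merged. Alternatives were DESeq2 1.42.0, other scalings and filters, log2 FPKM with a pseudocount of 1 or 0.1 in limma 3.58.1, a replicate block, no fold limit, glmTreat and each library left out in turn. Scripts were tested on simulated data.

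The symbols of the members, the gene lists and the naming rule were proposed with earlier results of these data known. The rule names every member, every listed pathway gene past both limits or otherwise by counts and range, the protein kinase D genes, and the 3 genes nearest in profile to the most changed gene of each family. Further listed genes were named after their values were seen. Coordinates, overlaps and promoter windows are from RefSeq on GRCh38.p14, with Python 3.11.15. Strands are from GENCODE on GRCh38.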

Additional observations from a re-analysis of the deposited data

How the results depend on the processing

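Over all alternatives HDAC4, HDAC9, MEF2A, MEF2C and MEF2D kept their direction and their side of an adjusted p of 0.05. HDAC7 passed it with upper-quartile factors (log2 fold change 0.087), library size only (0.098), DESeq2 (0.083), limma on log2(FPKM + 1) (0.095, with or without a filter) and on log2(FPKM + 0.1) (0.098), and ran from 0.066 to 0.093 with each library left out. These added HDAC7 to the members higher by adjusted p, which became 2, and left-out libraries gave 1 to 2. HDAC5 turned sign with library size only (0.011), limma on log2(FPKM + 1) (0.011, with or without a filter) and log2(FPKM + 0.1) (0.012), and ran from −0.053 to 0.035 with each library left out. The cause was not tested, beyond the construction of each scaling.

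All genes called higher and lower were 859 and 1475, and became 315 and 648 with log2(FPKM + 1), 310 and 635 with its filter, 339 and 821 with glmTreat, and 3700 and 3877 without the fold limit. Members called without it were 1 higher and 4 lower. Called pathway genes went from 12 to 7 with log2(FPKM + 1), with or without its filter (CAMK2D and SFN fell inside the fold limit, and CAMK4, NR4A1 and HDAC11 did so without the filter and were removed by it), to 7 with glmTreat and to 43 without the fold limit. The pseudocount of 1 compresses low genes, so that NR4A1 was at −0.30 in place of −4.09.

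Replicate numbers did not pair the samples (correlation of deviations −0.059 to −0.016 for equal numbers, −0.049 to 0.070 for others). The replicate block gave 854 genes higher and 1463 lower, 12 pathway genes, HDAC9 at −0.97 and HDAC7 at 0.079 with an adjusted p of 0.109, and changed no call among the members. Depth limits MEF2B, which had 0 to 5 counts per library.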
